A study of Rattus norvegicus with 6 samples.

Results

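Genes that fold proteins in the endoplasmic reticulum, thread them into it and destroy those that fail to fold were followed in fetal rat lung epithelial cells that were mechanically strained or left unstrained. They form a list of 36 genes in 5 functional groups: stress sensors and factors, chaperones with their cofactors, disulfide enzymes, the degradation machinery (endoplasmic reticulum-associated degradation, ERAD) and the translocon. A gene was included where a probe set of the array carried its symbol alone, and its brightest probe set stood for it. Of the 36 genes, 34 were found, and all 34 passed the filter on dim probe sets, among 7163 genes tested in all. Ern1 and Atf6, which encode the sensors IRE1 and ATF6, had no probe set annotated to them alone and are not analysed here.

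The cells were type II epithelial cells from fetal lungs of CD rats of both sexes at embryonic day 19, with strain and sex missing from the label of 1 control sample. Both groups were isolated cells plated on silastic membranes with a collagen 1 coat and kept in serum-free DMEM, and exposure to strain or to the unstrained control state lasted 16 h. In every hour a Flexercell unit stretched the 3 strained cultures cyclically by 5%, at a rate of 60 cycles/min, over 15 min and then held a distension of 2.5% over the other 45 min. The 3 control cultures were unstrained, and each strained culture was paired with the control of the same number, with another litter for each of the 3 pairs. Each culture was hybridised to 1 Affymetrix rat array with a median signal between 161.7 and 199.0 over 15923 probe sets. Pair 1 was run on an earlier day than pairs 2 and 3, and pair 3 was hybridised to another chip lot than pairs 1 and 2. Litter cannot be told apart from run day in pair 1 or from chip lot in pair 3.

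Secreted and membrane proteins enter the endoplasmic reticulum through the Sec61 channel, are held by chaperones of which BiP (Hspa5) is the central one, and receive disulfide bonds from the protein disulfide isomerases. Proteins that fail to fold are drawn back across the membrane by the HRD1 complex and degraded by the proteasome. When unfolded proteins accumulate, the sensors IRE1, PERK and ATF6 start the unfolded protein response. IRE1 (through XBP1) and ATF6 raise chaperone and ERAD genes, in part through the ERSE promoter elements. PERK slows translation and lets ATF4 be made. ATF4 can also be raised by kinases that sense amino acid shortage or other stresses, without unfolded proteins. In type II cells this pathway handles the surfactant proteins, among them the aggregation-prone proprotein of SP-C.

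Of the 34 genes, 1 rose and none fell. Herpud1, whose product is a membrane protein that joins the HRD1 complex and helps it degrade unfolded proteins, rose about 3-fold. Hspa5, Hsp90b1 and Pdia4, chaperone and disulfide genes classically raised by unfolded proteins, gave fitted folds of 1.02, 0.90 and 0.84. Other genes of the list differed in either direction without a call. Derl2, Dnajb9 and Manf had log2 differences of 0.44, 0.25 and 0.20, and Creld2 and Hyou1 of -0.46 and -0.35. Of the 11 chaperone and cofactor genes, 6 were positive and 5 negative. A call is an adjusted p under 0.05 in limma's moderated test with the litter pair as a block, with Benjamini-Hochberg adjustment over all 9519 probe sets tested. Over the 7163 genes tested, 0.321% were called higher and 0.0279% were called lower. Among the 34 genes 4 passed an unadjusted p of 0.05, namely Herpud1, Creld2, Derl2 and Hyou1. Their share, 11.8%, was near the 9.58% of all genes tested. The median log2 difference of the 34 genes was -0.0029, with 17 positive and 17 negative, against -0.014 over all genes tested. Per pair the median was -0.0036, 0.023 and -0.0077.

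**Figure D1:**
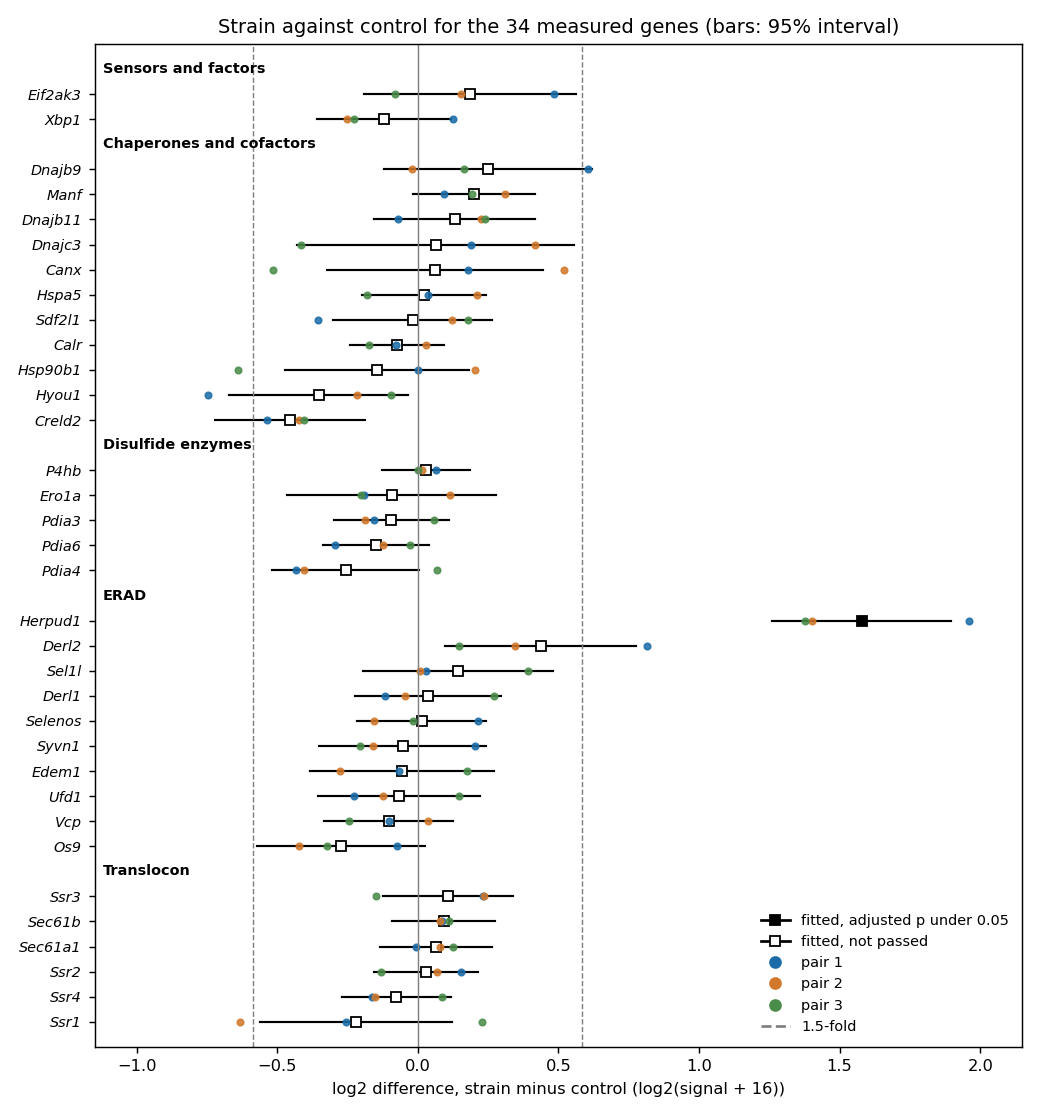
Log2 difference between strained and control cultures (horizontal axis, on log2(signal + 16)) for the 34 measured genes by functional group. Squares are fitted values with their 95% intervals, filled where the adjusted p is under 0.05, coloured points are the 3 litter pairs and dashed lines mark 1.5-fold. Herpud1 stands at 1.58, and the intervals of 29 genes lie between the dashed lines.

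Herpud1 had a signal of 581, 571 and 488 in the control cultures of pairs 1, 2 and 3, and of 2305, 1535 and 1292 in the strained cultures of the same pairs. The groups did not overlap, and the lowest strained signal was above the highest control signal by more than the whole control range. Its mean went from 547 ± 51.1 (SD, n = 3) to 1711 ± 529 (SD, n = 3), and the ratio within pairs was 3.97, 2.69 and 2.65. The fitted log2 difference was 1.58 ± 0.14 (SE, adjusted p = 0.00145), a fold of 2.99 with a 95% interval from 2.40 to 3.72. In each pair it had the highest difference of the 34 genes. The next was Derl2 at 0.82 in pair 1, Canx at 0.52 in pair 2 and Sel1l at 0.39 in pair 3. The value was 1.96 in pair 1, which made up the first run day, and 1.39 over pairs 2 and 3 of the second run day (adjusted p = 2.53e-05). That fit estimated anew, from 2 pairs, the variances pooled across probe sets. Its smaller adjusted p is therefore no sign of stronger evidence than all 3 pairs gave. The call did not hold in every fit: its adjusted p was 0.177 with no replicate block and 0.131 where the variance was not allowed to follow intensity, each with the same difference of 1.58.

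**Figure D2:**
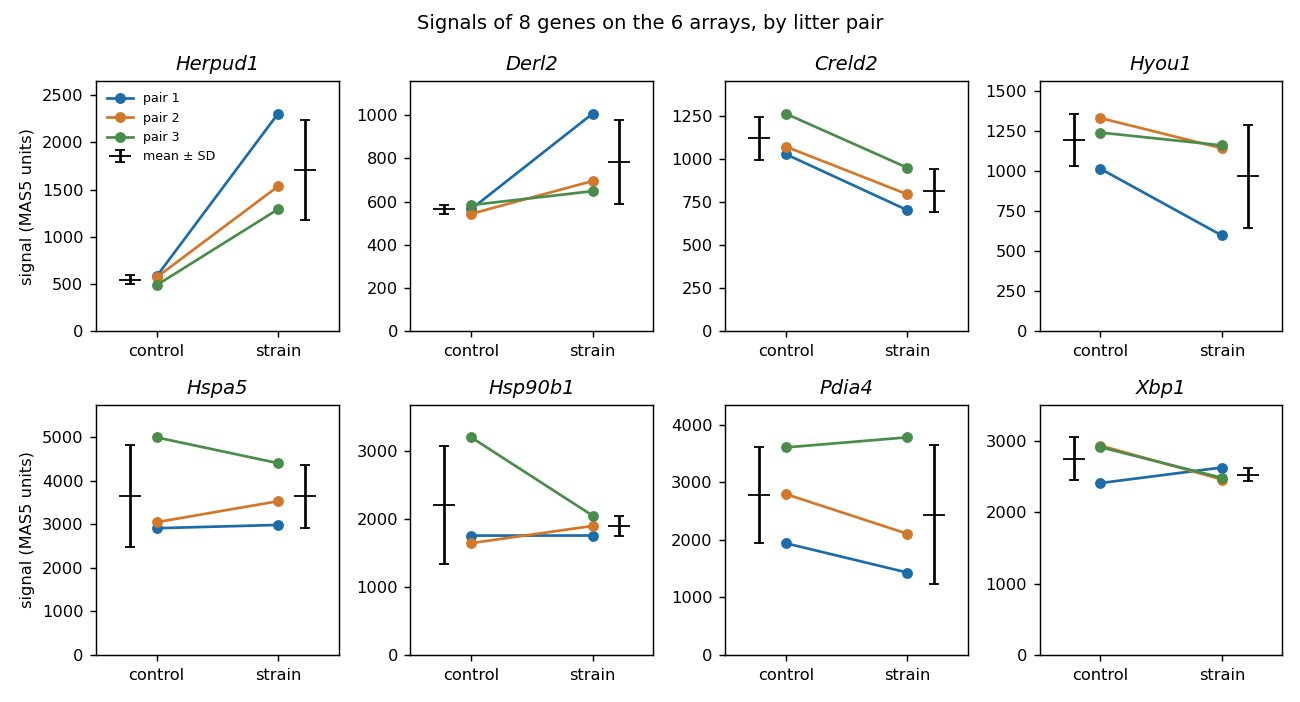
Signal (vertical axis, MAS5 units from 0) of 8 genes in the control and strained culture of each litter pair, joined by a line, with the mean and SD of each group of 3 beside it. Herpud1 rises in each pair, from at most 581 to at least 1292, Creld2 is lower in each strained culture, and the groups overlap for Hspa5 and Hsp90b1.

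Herpud1 is shown with its promoter because it was the called gene and because its window held matches to both ERSE-II and AARE, which are spelled out below. Promoter windows came from RefSeq (rat build GRCr8) and ran from 250 bases before to 50 bases after the annotated start; 27 of the 36 genes had one. Searched on both strands were ERSE (CCAAT, then 9 bases, then CCACG), ERSE-II (ATTGG, then 1 base, then CCACG), UPRE (TGACGTGG) and the amino acid response element AARE (TGATGNAAN), to which ATF4 and its partners bind. ERSE and ERSE-II share the end CCACG, which the reverse strand of UPRE also holds. Only exact matches were counted. The Herpud1 stretch also holds CCAAT, then 9 bases, then CCACA, which differs from ERSE in its last base. Near matches were not searched for in the other windows. In the runs printed here, 5′ to 3′ along the gene and ending before its start, capitals mark the matches. The Herpud1 stretch lies at chr19:10614708-10614957 on the minus strand, with AARE on the opposite strand from 185 to 177 bases before the start and ERSE-II from 124 to 114 bases before it.
Herpud1: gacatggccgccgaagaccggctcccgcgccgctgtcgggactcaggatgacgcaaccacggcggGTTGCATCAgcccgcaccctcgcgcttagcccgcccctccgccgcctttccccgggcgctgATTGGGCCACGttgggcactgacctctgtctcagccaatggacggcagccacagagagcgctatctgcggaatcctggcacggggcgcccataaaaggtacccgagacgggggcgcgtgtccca

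The other sequences belong to 4 chaperone and cofactor genes whose windows held ERSE or ERSE-II and that were not called. Among them are Creld2 and Hyou1, which had the lowest log2 differences of the list. Xbp1, Calr, Canx, Dnajc3 and Dnajb11 also held ERSE or ERSE-II without a call and are not printed. Their log2 differences were -0.12, -0.075, 0.061, 0.064 and 0.13. Hspa5 (chr3:38452953-38453011, plus strand), Hsp90b1 (chr7:23012327-23012489, minus strand) and Creld2 (chr7:121789219-121789277, plus strand) held ERSE, and Hsp90b1 held 2 copies of it. Hyou1 (chr8:53602671-53602824, plus strand, the more upstream of its 2 listed starts) held ERSE-II at 2 positions, with UPRE overlapping the first.
Hspa5: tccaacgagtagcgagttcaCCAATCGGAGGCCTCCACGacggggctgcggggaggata
Hsp90b1: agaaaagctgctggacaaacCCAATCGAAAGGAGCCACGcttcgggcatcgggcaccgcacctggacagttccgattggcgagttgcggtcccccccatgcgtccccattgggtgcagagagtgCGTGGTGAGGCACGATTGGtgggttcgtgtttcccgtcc
Creld2: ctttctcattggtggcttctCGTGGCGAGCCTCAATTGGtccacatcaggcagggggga
Hyou1: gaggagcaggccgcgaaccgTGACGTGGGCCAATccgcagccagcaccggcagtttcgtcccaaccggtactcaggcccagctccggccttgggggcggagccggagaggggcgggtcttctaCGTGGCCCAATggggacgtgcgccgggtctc

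ERSE was held by 7 of the 27 windows (25.9%), against 0.0765% of the 27457 genes with a window. The list holds chaperone genes, which are known to be raised through ERSE, so this excess is no finding of these data. The 7 were Xbp1, Hspa5, Hsp90b1, Calr, Canx, Dnajc3 and Creld2. None of them was called, and their log2 differences ran from -0.46 to 0.064 with a median of -0.075. ERSE-II was held by Herpud1, Hyou1 and Dnajb11 (11.1%, against 0.0619% of all), with log2 differences of 1.58, -0.35 and 0.13. UPRE was held by Hyou1 and Vcp (7.41%, against 0.681%). AARE was held by Herpud1 alone, 3.7% of the 27 windows against 4.14% of all, so its frequency in the list was near the background. The end CCACG alone was held by 21 of the 27 windows (77.8%), against 34.1% of all. A match describes the letters of the window and does not show that a factor bound there.

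**Figure D3:**
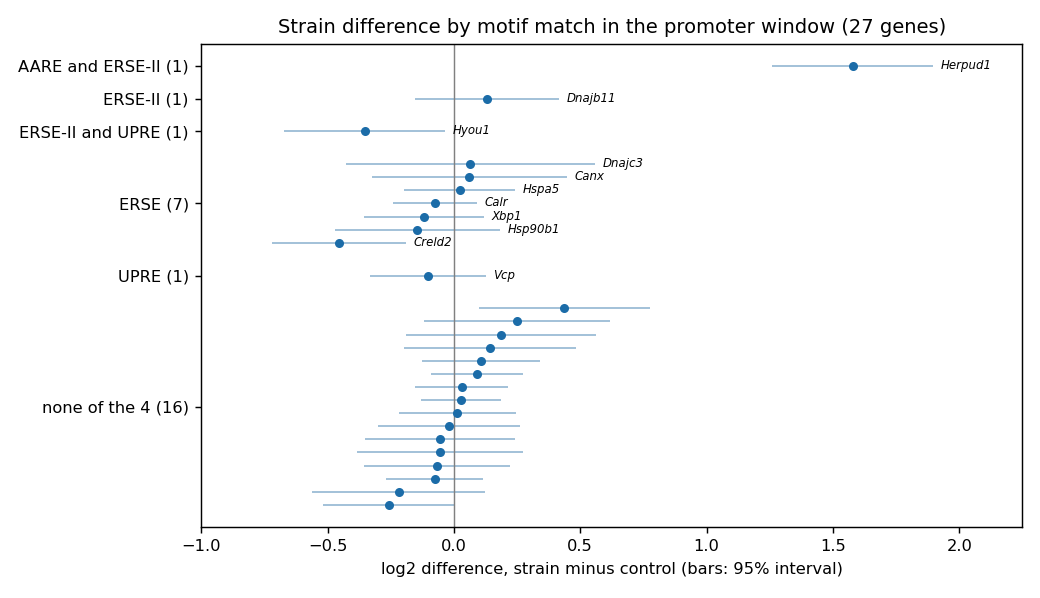
Log2 difference between strained and control cultures (horizontal axis) with 95% intervals for the 27 measured genes with a promoter window, grouped by the elements matched in it (vertical axis, number of genes in brackets). Herpud1, with exact matches to AARE and ERSE-II, stands at 1.58. The 7 genes with an exact match to ERSE lie from -0.46 to 0.064.

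Of the sensors and factors, PERK and XBP1 could be followed through their genes. Eif2ak3, which encodes PERK, gave 249.5, 262 and 311 in control and 356, 294 and 293 in strained cultures of pairs 1, 2 and 3. The strained culture was higher in pairs 1 and 2 and lower in pair 3, and the groups overlapped. The fitted fold was 1.14 (95% interval 0.88 to 1.48, adjusted p = 0.811). Xbp1, which encodes the factor activated by IRE1, gave 2409.7, 2936 and 2914 in control and 2628, 2459.8 and 2484 in strained cultures. It was higher in pair 1 and lower in the other pairs, with a fold of 0.92 (0.78 to 1.09, adjusted p = 0.809). Splicing of the Xbp1 transcript, the step that IRE1 controls, was not analysed here.

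None of the 11 chaperone and cofactor genes was called, and their median log2 difference was 0.022. Hspa5, the central chaperone and the usual readout of unfolded proteins, gave 2908, 3046 and 4994 in control and 2983, 3528 and 4402 in strained cultures. Both cultures of pair 3 were higher than the other 4, and the strained culture was higher in pairs 1 and 2 and lower in pair 3. The fitted fold was 1.02, and its 95% interval from 0.87 to 1.18 leaves out the 1.5-fold change in either direction. Hsp90b1, which encodes the paralogue GRP94, gave 1756, 1645 and 3201 in control and 1757, 1898 and 2049.7 in strained cultures. The control of pair 3 stood apart, and without pair 3 the log2 difference was 0.10 in place of -0.14.

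Creld2, a cofactor with disulfide isomerase activity that unfolded proteins normally raise, was the gene with the smallest p after Herpud1. Its signal was 1029, 1073 and 1264 in control and 704, 796 and 951 in strained cultures. Each strained culture lay below every control culture, with ratios within pairs of 0.68, 0.74 and 0.75. The log2 difference was -0.46 ± 0.12 (SE, n = 3 pairs, adjusted p = 0.221), so it did not pass. Hyou1, a large chaperone that works with BiP and exchanges its nucleotide, gave 1015, 1332 and 1241 in control and 599, 1143 and 1161 in strained cultures. It was lower in each pair, mostly in pair 1, at -0.35 ± 0.14 (adjusted p = 0.476), and -0.16 without pair 1. A second, dimmer probe set of Hyou1 gave -0.061 ± 0.17.

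The remaining chaperone genes included the lectin chaperones, which bind the sugars of new glycoproteins, and the J-domain cofactors of BiP. Calr, the soluble lectin chaperone, had a fold of 0.95 (95% interval 0.85 to 1.07). Canx, its membrane-bound relative, gave 1085, 623 and 1476 in control and 1229, 900.2 and 1029 in strained cultures. Its pairs went in opposite directions, and its 3 probe sets disagreed, at 0.061 ± 0.18, -0.11 ± 0.18 and, on a dim one, 0.64 ± 0.44. Dnajb9, a cofactor also tied to ERAD and a common target of XBP1, was at 0.25 ± 0.17 with 0.60 in pair 1. Dnajb11 and Dnajc3, further J-domain cofactors, were at 0.13 ± 0.13 and 0.064 ± 0.22, and Sdf2l1, which works with Dnajb11, was at -0.019 ± 0.13. Manf, a secreted stress-responsive protein retained by BiP, was higher in each pair at 0.20 ± 0.099 (adjusted p = 0.584).

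The 5 disulfide enzymes had a median log2 difference of -0.095, and 4 of them were negative. Pdia4, a disulfide isomerase, gave 1942, 2797 and 3609 in control and 1433, 2108 and 3784 in strained cultures. It was lower in pairs 1 and 2 and hardly higher in pair 3, with a fold of 0.84 (95% interval 0.70 to 1.00, adjusted p = 0.54). Pdia6 gave 5349.6, 5504 and 6954 in control and 4359.6, 5049 and 6814 in strained cultures, a fold of 0.90 (0.79 to 1.03). It was lower in each pair, by little in pair 3, and the groups overlapped. Pdia3, the isomerase that serves glycoproteins, was at -0.095 ± 0.093, and its dimmer probe set at -0.35 ± 0.21. P4hb, the main isomerase, was at 0.028 ± 0.071. Ero1a, the oxidase that recharges the isomerases, gave 289.5, 227 and 300.0 in control and 251, 248 and 258 in strained cultures. Its brighter probe set was at -0.094 ± 0.17 and its dim one at 0.40 ± 0.27, so the probe sets disagreed in sign without either passing.

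Among the 10 ERAD genes Herpud1 was called, and the median was -0.020. Derl2, a derlin of the channel through which proteins leave the endoplasmic reticulum, gave 565, 543 and 584 in control and 1006, 695 and 648 in strained cultures. The groups did not overlap, with the strained culture of pair 1 far above the rest. The log2 difference was 0.44 ± 0.15 (SE, adjusted p = 0.387), and 0.25 without pair 1. Its relative Derl1 was at 0.036 ± 0.12 on the brightest probe set and at 0.080 ± 0.12 and 0.23 ± 0.12 on its others. Sel1l and Syvn1, the adaptor and the ubiquitin ligase HRD1 of the complex that Herpud1 joins, were at 0.14 ± 0.15 and -0.054 ± 0.14. Edem1 and Os9, which deliver misfolded glycoproteins to that complex, were at -0.056 ± 0.15 and -0.27 ± 0.14, with Os9 lower in each pair. Vcp and Ufd1, the ATPase that pulls proteins from the membrane and its cofactor, were at -0.10 ± 0.10 and -0.068 ± 0.13. Selenos, a membrane anchor of that ATPase, was at 0.013 ± 0.10.

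The 6 translocon genes had a median of 0.047 with none called. Sec61b, a subunit of the channel, gave 6032, 4254 and 3369 in control and 6395, 4497 and 3635 in strained cultures. The strained culture was slightly higher in each pair, with ratios of 1.06, 1.06 and 1.08, while the litters differed by 1.77-fold. Its log2 difference was 0.091 ± 0.083 (adjusted p = 0.81). Ssr1, a subunit of the translocon-associated protein complex, gave 1438, 1106 and 1384 in control and 1203, 708 and 1624 in strained cultures, lower in pairs 1 and 2 and higher in pair 3. Its fold was 0.86 (95% interval 0.68 to 1.09). Ssr2, Ssr3 and Ssr4 of the same complex were at 0.030 ± 0.084, 0.11 ± 0.11 and -0.077 ± 0.088, and the channel gene Sec61a1 was at 0.065 ± 0.090. Ssr3 gave 2781, 2620.0 and 4144 in control and 3269, 3090.0 and 3741 in strained cultures, and one of its other probe sets was at -0.069 ± 0.18.

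Counted by direction, 6 of the 34 genes were higher in all 3 pairs (17.6%, against 14.3% of all genes tested) and 4 were lower in all 3 (11.8%, against 16.2%). Both shares were near the background. The higher ones were Herpud1, Derl2, Manf, P4hb, Sel1l and Sec61b, and the lower ones were Creld2, Hyou1, Pdia6 and Os9. The strained and control groups did not overlap for 2 genes with strain higher, Herpud1 and Derl2 (5.88%, against 2.99%), and for 1 with strain lower, Creld2 (2.94%, against 3.2%). For 29 of the 34 genes (85.3%, against 71.3% of all genes tested) the 95% interval lay wholly inside a 1.5-fold change in either direction. The exceptions were Herpud1, Derl2, Dnajb9, Hyou1 and Creld2. The genes of the list were also brighter and measured with less error than most, with a median signal of 1676 against 501 and a median SE of 0.12 against 0.15. These intervals use variances pooled across probe sets.

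Signals also varied between litters. The range of the 3 litter means exceeded the strain difference for 29 of the 34 genes (85.3%, against 88.6% of all genes tested), a share near the background. A range over 3 means of 2 arrays tends to be wider than a difference between 2 means of 3 arrays, so this count is a description and no test of a litter effect. The exceptions were Herpud1, Creld2, Derl2, Eif2ak3 and Xbp1. Pdia4, at 2.20-fold, and Dnajb9 had the widest litter ranges, followed by Vcp at 1.79-fold. Pair 3, with its own chip lot, had the highest litter mean for 19 of the 34 genes, pair 1 for 8 and pair 2 for 7. The same count over all genes was not made. Across all probe sets pair 3 also had the highest median signals, 197.3 in control and 199 in strain.

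**Figure D4:**
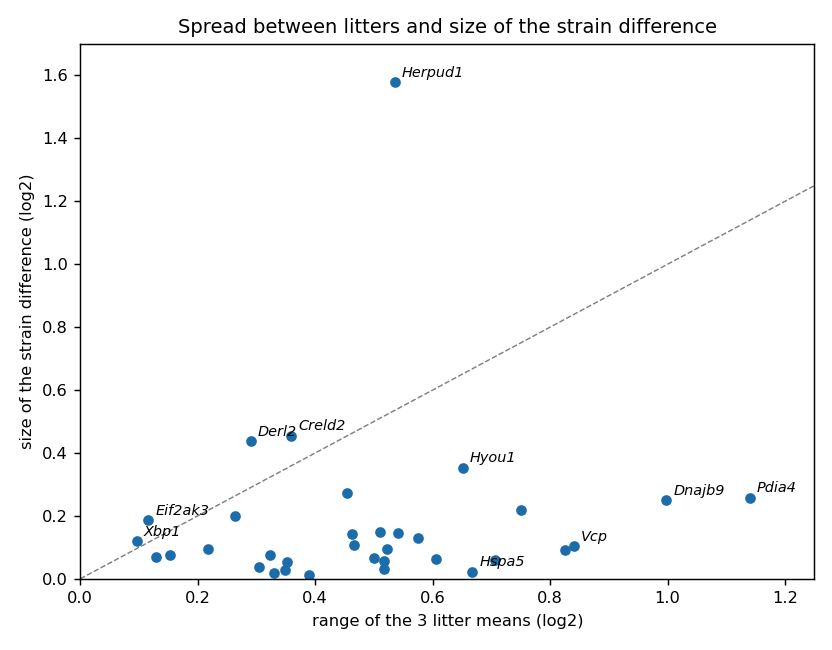
Range of the 3 litter means (horizontal axis, log2) against the size of the strain difference (vertical axis, log2) for the 34 genes, with the dashed line where both are equal. Herpud1 lies far above the line, Creld2, Derl2, Eif2ak3 and Xbp1 lie slightly above it and the other 29 lie below it.

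Other genes of the pathway were set beside the list. Of 24 further folding enzymes, 17 genes of N-glycan transfer and trimming, 21 further ERAD genes, 17 genes of signal recognition and signal peptide cleavage and 7 other membrane-bound factors and their proteases, none was called in either direction. Their medians were -0.024, 0.039, 0.057, 0.038 and 0.048. Over all genes tested 0.321% were called higher and 0.0279% lower, so no call in lists of this size is near the background. The members with the smallest p included Fkbp9, a prolyl isomerase, at -0.31 ± 0.10, Sil1, which like Hyou1 exchanges the nucleotide of BiP, at -0.52 ± 0.18, and Magt1, a subunit of the oligosaccharyltransferase, at 0.56 ± 0.21. Their adjusted p-values were 0.352, 0.387 and 0.402.

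The branch downstream of PERK and ATF4 was counted in the same way, with no test of its difference from the other lists. Like the others, this list was chosen with earlier results of these data known. Its counts beside those of all genes are therefore a description only. Of its 14 tested genes 5 were called higher, against 0.321% of all genes tested, and none lower. In all 3 pairs 9 were higher, against 14.3% of all genes tested, and the median was 0.62. The called genes were Trib3 (2.10 ± 0.15), Chac1 (0.98 ± 0.11), Atf5 (0.94 ± 0.15), Asns (0.93 ± 0.11) and Atf4 itself (0.69 ± 0.080). These calls depended on the fit: with the same log2 differences, 0 of the 5 were called with no replicate block or with run day as the block, 1 (Trib3) where the variance was not allowed to follow intensity, and 3 (Trib3, Chac1 and Asns) with no filter on dim probe sets. Chosen after their values were seen, Ddit3, which encodes CHOP, was at 0.77 ± 0.17 (adjusted p = 0.132), and Ppp1r15a, whose product restarts translation, at 0.42 ± 0.13 (adjusted p = 0.309). AARE was matched in the windows of 4 of these 14 genes (28.6%, against 4.14% of all genes with a window), namely Trib3, Chac1, Nupr1 and Ppp1r15b. ERSE, ERSE-II and UPRE were matched in none, against 0.0765%, 0.0619% and 0.681% of all. No match in 14 windows is near those shares. The end CCACG alone was held by 10 of these 14 windows (71.4%), near the 77.8% of the folding and degradation list and against 34.1% of all genes with a window. Nupr1 and Ppp1r15b were at 0.55 ± 0.13 and 0.20 ± 0.14 and were not called. The called genes Atf4, Atf5 and Asns had no AARE match in this window.

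**Figure D5:**
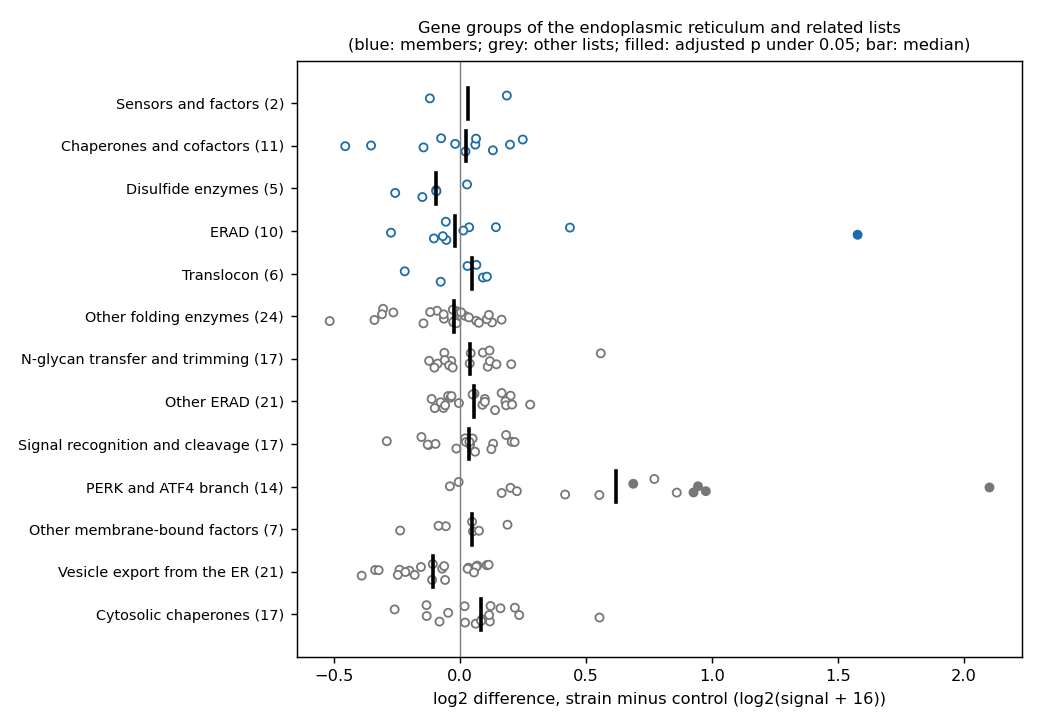
Log2 difference between strained and control cultures (horizontal axis) for each tested gene of the 5 groups of the list (blue) and of 8 other lists (grey), with the number of genes in brackets, filled points for an adjusted p under 0.05 and a bar at the median. Herpud1 is the filled point of the blue groups, and the 5 filled grey points belong to the PERK and ATF4 branch, whose median is 0.62.

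The labelled cell type was checked against its markers and those of other cell types. Of the 12 measured lung epithelial and type II markers, Sftpc, Sftpb, Sftpd, Abca3, Slc34a2, Nkx2-1, Epcam, Cdh1, Krt8 and Krt18 passed the dim filter and Sftpa1 and Napsa did not. The summed signal of the 12 ran from 38186 to 41651 in control and from 39089 to 40679.7 in strained cultures. Sftpc went from 1232 ± 124 to 1871 ± 475 (SD, n = 3 each; log2 difference 0.57 ± 0.12, adjusted p = 0.12), while Slc34a2, a type II phosphate transporter named after its values were seen, was at -0.77 ± 0.20 (adjusted p = 0.221). All 5 type I markers passed the dim filter, with a median log2 difference of -0.040 and none called. Their summed signal ran from 16692 to 19306 in control and from 16342.5 to 18127 in strained cultures. The 7 tested smooth muscle and myofibroblast markers were all negative, with a median of -0.40 and none called, and the summed signal of the 8 measured was lower in the strained culture of each pair. It went from 21067 to 15589 in pair 1, from 25447 to 23364 in pair 2 and from 21259.6 to 19308 in pair 3. The 7 tested leukocyte markers had a median of -0.28, and their list's summed signal went from 2803 to 2051, from 2767 to 2074 and from 3365 to 3497. The general leukocyte marker Ptprc did not pass the dim filter. Of 8 fibroblast markers 4 passed it, with a median of -0.30. Of these 3 were negative, the lowest Col1a2 at -0.61, and 1 was positive, Col1a1 at 0.18. The summed signal of all 8 went from 6959 to 6683, from 8598 to 8143 and from 8326 to 8215, lower in each pair. Of the endothelial markers 1 passed the dim filter, Egfl7 at -0.033. Of the erythroid markers 2 passed it, Hbb at -1.13 and Slc4a1 at 0.58, and none of these was called. In RNA of whole cultures fewer cells of a type and less RNA per cell cannot be told apart, and the share of other cell types was not measured. The part of these marker differences in the differences of Herpud1, Creld2, Derl2 and Hyou1 was not tested.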

How the data were processed

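RNA of 3 strained and 3 control cultures was measured on 6 Affymetrix arrays, 1 per culture. The authors deposited 1 linear intensity (signal) for each probe set, and the submitters' processing notes name MAS5 5.0. Their trimmed means lay close to 500 on each array. Run records of the arrays, per the file headers, gave the run day and chip lot. Genome alignment does not apply, and detection calls were not used.

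Each array was brought to a mean of 500, with 2% trimmed at each end, and log2(signal + 16) was used, a scale on which folds of dim genes come out too small. Left out were 57 control probe sets and the dimmest 40% of the other 15866 (mean signal under about 115.6). The remaining 9519 were fitted in limma 3.58.1 (R 4.3.3) with litter pair and group as terms and a variance trend on intensity, with 9 of 11 degrees of freedom borrowed from other probe sets. P-values were adjusted by Benjamini-Hochberg over all of them. Signals are given after scaling, and folds are powers of the fitted log2 difference.

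Symbols came from the platform annotation: 12783 probe sets had 1, 312 had several and 2771 had none, and only those with 1 were named. The replicate number marks the litter, per the series' design text, and deviations of same-numbered arrays from their group means correlated at 0.51, 0.475 and 0.435 across probe sets, against -0.35 to -0.117 for other combinations.

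The genes and lists were chosen with earlier results of these data known. For the list of 36 genes, all 6 signals are given for called genes, the 2 genes of each group with the smallest p, the sensors, genes whose probe sets disagree in sign, and Hspa5 and Hsp90b1 in addition. The cultures of a group came from different litters, and their number limits the precision. Alternatives in scaling, filter, block, trend, probe set and pairs kept were run.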

Additional observations from a re-analysis of the deposited data

How the results depend on the processing

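With no replicate block, Herpud1 lost its call (adjusted p = 0.177 at an unadjusted p of 1.86e-05), so 0 of the 34 genes and 0 of 9519 probe sets were called, while 200 probe sets had an unadjusted p below 0.05. Where the variance was not allowed to follow intensity, 0 of the 34 genes and 1 probe set were called. With run day as the block, the 1 called probe set was that of Herpud1 (adjusted p = 0.0184). With no filter on dim probe sets, 5 were called, against 31 as reported, and Herpud1 was among them (adjusted p = 0.0374). The cause of these changes was not tested. Herpud1 was called in each fit that left out a pair (log2 difference 1.39 to 1.68, adjusted p up to 0.0151), in which 9 (without pair 2) to 52 (without pair 1) probe sets were called. Counted over the 14 genes of the PERK and ATF4 branch after the data were seen, 5 calls became 0 with no replicate block and with run day as the block, 1 with the variance not following intensity, 3 with no dim filter and 4 to 5 with a pair left out. No gene of the 34 was called lower in any setting. With only 2 pairs to satisfy, 7 to 13 genes were higher and 7 to 11 lower in each pair kept, the most in both directions without pair 3. Their median log2 difference went from -0.0029 to -0.020 with quantile normalization, to -0.037 with the probe set of smallest p and to -0.022 with the mean over probe sets, and lay between -0.026 and 0.021 with a pair left out.

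Of the other signs, Ssr2 (-0.0090) and Selenos (-0.017) turned with quantile normalization, and Canx turned with the probe set of smallest p (-0.11) and with the mean over probe sets (-0.025). With a pair left out, 11 genes that were not called changed sign: Ssr2 (-0.032 to 0.11), Selenos (-0.087 to 0.098), Sdf2l1 (-0.12 to 0.15), Ufd1 (-0.18 to 0.011), Hspa5 (-0.072 to 0.12), Canx (-0.17 to 0.35), Edem1 (-0.17 to 0.054), Dnajc3 (-0.11 to 0.30), Hsp90b1 (-0.32 to 0.10), Derl1 (-0.081 to 0.11) and Syvn1 (-0.18 to 0.022). Probe-level values were not used, so signal over background was judged only by the mean signal.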

Other observations

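Genes on either side of the endoplasmic reticulum were also examined. Of 21 tested genes of vesicle export from it, 14 were negative, none was called, and the median log2 difference was -0.11. Sec24d, a cargo adaptor of the COPII coat, was at -0.34 ± 0.14, and Sec22b, a SNARE of that transport step, at -0.39 ± 0.16, each lower in all 3 pairs, with adjusted p-values of 0.475 and 0.481. Of 17 cytosolic chaperone genes, 12 were positive, none was called and the median was 0.084, with per-pair medians of 0.20, 0.21 and -0.18. No call in either list is near the background, where 0.321% of all genes tested were called higher and 0.0279% lower. Hspb8, a small heat shock protein of chaperone-assisted autophagy, was higher in all 3 pairs, from 1045 ± 211 to 1628 ± 682 (SD, n = 3 each), at 0.55 ± 0.15 (adjusted p = 0.215), while Hspb1 was lower in all 3 at -0.26 ± 0.11.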
